A study of Mus musculus with 6 samples.

Results

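The genes described here encode the T cell receptor (TCR) complex, the kinases and adaptors that carry its signal, and the enzymes and receptors that restrain it. They were chosen by name, 38 genes in all, and 37 of them had an array row paired with their symbol alone. All 37 passed the filter on low values and were tested among 15037 genes. Lck, the kinase that starts the cascade, was not analysed here. By known role, 22 of the 37 promote TCR signalling, 13 restrain it, and Ptprc and Sh2d2a are known for both.

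When a TCR binds a peptide held by an MHC molecule, Src-family kinases phosphorylate the cytoplasmic tails of the CD3 and ζ chains. ZAP-70 docks there and phosphorylates the scaffolds LAT and SLP-76, from which signals branch to calcium and NFAT, to Ras, and through PKC-θ to NF-κB. Phosphatases, ubiquitin ligases and diacylglycerol kinases oppose these steps. Regulatory T cells (Tregs), CD4+ cells that hold immune responses in check under the transcription factor Foxp3, use the same machinery.

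The cells were T cells of wild-type mice transferred into recipients that lacked CD3ε and so had no T cells of their own. The MHC II-competent recipients carried the CD3ε deficiency alone, and the MHC II-deficient recipients also lacked MHC class II, the ligand of the TCR on CD4+ cells. The labels give the strain as C57BL/6 and the age as 6 to 8 weeks, without saying whether the age is that of donors or recipients. CD4+ cells that bore TCRβ and CD25 were purified on day 5 from lymph nodes and spleen with magnetic beads and a sorter, and 1 array was run for each of 3 biological replicates per group. The labels do not say whether a replicate pools several recipients, so p-values cover the spread between these preparations only. Arrays are named by group and replicate number, as in competent 1 or deficient 3. A positive difference means a higher level in the MHC II-deficient group, on the log2 scale, and is given with limma's standard error (SE) and a p adjusted over all 15037 genes. A gene was called at an adjusted p under 0.05.

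The 6 arrays had medians from 6.11 to 6.25 on the log2 scale. Foxp3 lay between 9.68 and 9.88 in all of them, and its difference was -0.06 (SE 0.09, adjusted p = 0.80), or 0.02 under quantile normalization. Il2ra, which encodes CD25, the antigen used in the sort, had a difference of -0.27 (SE 0.11, adjusted p = 0.22). All 5 Treg markers followed lay below 0 in the deposited scaling, with a median of -0.27, 3 of them at an unadjusted p under 0.05 and 0 called by limma. Markers of other cells were followed as well, and each mean covers only the genes that passed the filter. The mean level of 17 myeloid and dendritic cell markers ran from 6.08 to 6.84 in the competent and from 6.79 to 7.44 in the deficient arrays, 15 of the 17 differences were above 0 (54.0% of all genes tested were), and their median was 0.72. An unadjusted p under 0.05 was found for 13 of the 17 in either direction, against 18.9% of all genes. These 13 include the 2 markers below 0, Itgam (-0.43) and Cst3 (-0.28), which were lower in every deficient array. Adgre1 (F4/80) was the 1 called marker of that list (1.39, SE 0.29, adjusted p = 0.035), against 3.37% of all genes called, and 1 of the 18, Clec7a, lay below the filter. The mean of 5 CD8 T and NK cell markers was 7.83 to 7.90 and 8.03 to 8.18 in the same order of groups, with 3 of the 5 at an unadjusted p under 0.05 and 0 called by limma. The other 3 of that list, Ncr1, Klrb1c and Klra8, lay below the filter. The mean of 5 B cell markers was 5.86 to 6.08 and 6.00 to 6.04, with 2 at an unadjusted p under 0.05 and 0 called by limma. These 2 went opposite ways, Cd79a higher (0.46) and Cd79b lower (-0.39) in the deficient arrays. Another 2 of the B cell list, Ms4a1 and Cr2, lay below the filter. The part of these cells in the results below was not tested. In such bulk samples fewer cells of a type and less RNA per cell cannot be told apart.

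Most of the TCR machinery differed by less than 1.5-fold between the groups. The median size of the difference, whatever its sign, was 0.15 over the 37 genes and 0.13 over all genes tested. Of the 37 genes, 1 rose (Themis) and 1 fell (Ubash3b), which is 5.41% against 3.37% of all genes tested (1.34% higher and 2.03% lower), so the share of called genes was near the background. The groups did not overlap for 12 of the 37 (32.4%), 5 higher and 7 lower in the deficient arrays, against 24.3% of all genes (11.4% higher and 12.9% lower). An unadjusted p under 0.05 was found for 5 of the 37, and for 18.9% of all genes. The 95% interval of the difference lay within 1.5-fold either way for 34 of the 37 genes (91.9%, against 82.9% of all genes). The 3 exceptions were Ubash3b, Themis and Malt1. For the 34 others, a change beyond 1.5-fold lies outside the interval. Smaller changes cannot be told from none with 3 arrays per group once p is adjusted over all genes. The intervals, which are not adjusted, leave out 0 for Ptpn6 (-0.45 to -0.0072) and Ubash3a (0.0064 to 0.43).

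**Figure D1:**
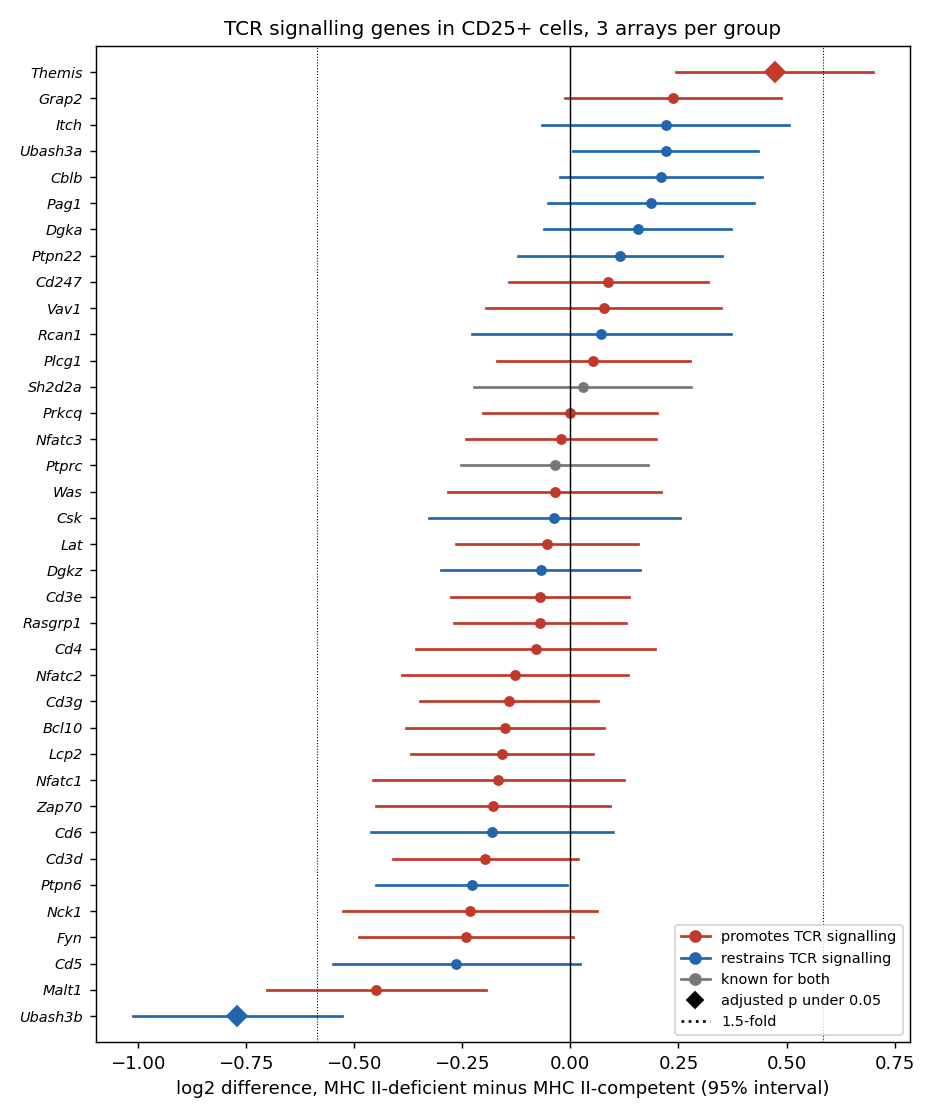
Log2 difference of each of the 37 genes (points) with its 95% interval (lines), red for genes known to promote TCR signalling, blue for those that restrain it and grey for both. Diamonds mark the 2 called genes, Ubash3b at -0.77 and Themis at 0.47, and most other intervals cross 0 and stay within the dotted 1.5-fold lines.

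Ubash3b showed the largest difference of the 37 genes. It encodes Sts-1, a phosphatase that removes phosphate from ZAP-70 and related kinases and so damps the TCR signal, and it is expressed in many blood cell types. Its row read 8.14, 8.18 and 7.92 in competent 1 to 3 and 7.22, 7.41 and 7.30 in deficient 1 to 3. Every deficient array lay below every competent array, by more than the SD of either group. The means were 8.08 ± 0.14 and 7.31 ± 0.10 (SD, n = 3), a 1.71-fold lower level (log2 difference -0.77, SE 0.11, adjusted p = 0.0066). The call held without each of the 6 arrays in turn, with differences from -0.85 to -0.72 and adjusted p up to 0.039. For comparison, the median difference was 0.72 over 17 myeloid and dendritic cell markers and -0.27 over 5 Treg markers. The part of cell composition in the difference of Ubash3b was not tested.

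Ubash3a, the paralogue of Ubash3b that encodes the weaker phosphatase Sts-2 and is found mainly in lymphocytes, lay on the other side of 0. It stood at 8.68, 8.50 and 8.52 in the competent and 8.82, 8.80 and 8.74 in the deficient arrays. The groups did not overlap, but the difference of 0.22 (SE 0.10, adjusted p = 0.25) did not pass the threshold. Within each array, the row of Ubash3a exceeded that of Ubash3b by 0.55, 0.32 and 0.60 on the log2 scale in the competent and by 1.60, 1.40 and 1.45 in the deficient arrays. The size of this gap in 1 array says nothing on its own, since the rows have different probes. Its shift between the groups was 0.99, from 0.49 ± 0.15 to 1.48 ± 0.11 (SD, n = 3), a description of a pair picked after its values were seen. Other related pairs were compared in the same way, and the shift was 0.22 for Dgka minus Dgkz and -0.08 for Cd5 minus Cd6.

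The promoters of Ubash3b and Ubash3a are printed because Ubash3b fell while its paralogue did not pass the test. Each window runs from 250 bases before to 50 after an annotated transcript start (RefSeq, GRCm38.p6), and capitals mark the letters TGGAAA on either strand, a core that NFAT proteins bind. The first Ubash3b window is chr9:41158013-41158312 and the second chr9:41079457-41079756, both on the minus strand, and that of Ubash3a is chr17:31207816-31208115 on the plus strand.
Ubash3b window 1: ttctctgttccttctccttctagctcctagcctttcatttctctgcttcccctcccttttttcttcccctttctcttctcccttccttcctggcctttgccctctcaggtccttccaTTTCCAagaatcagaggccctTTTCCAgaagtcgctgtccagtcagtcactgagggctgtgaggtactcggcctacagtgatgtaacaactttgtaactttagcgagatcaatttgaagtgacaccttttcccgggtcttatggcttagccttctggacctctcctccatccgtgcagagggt
Ubash3b window 2: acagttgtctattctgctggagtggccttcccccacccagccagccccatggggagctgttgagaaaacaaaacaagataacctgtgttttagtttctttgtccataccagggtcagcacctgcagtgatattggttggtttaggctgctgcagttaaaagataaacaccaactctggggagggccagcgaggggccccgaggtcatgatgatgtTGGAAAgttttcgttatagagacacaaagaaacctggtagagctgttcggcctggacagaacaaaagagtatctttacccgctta
Ubash3a: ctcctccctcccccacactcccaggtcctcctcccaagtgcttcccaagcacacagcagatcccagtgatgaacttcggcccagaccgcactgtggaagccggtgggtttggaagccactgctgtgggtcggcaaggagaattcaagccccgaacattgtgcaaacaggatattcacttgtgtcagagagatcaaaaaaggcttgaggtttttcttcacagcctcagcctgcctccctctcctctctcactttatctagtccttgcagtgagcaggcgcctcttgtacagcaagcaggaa
The letters TGGAAA occur 2 times in the first Ubash3b window and 1 time in the second, and 0 times in that of Ubash3a. They occur in 21.4% of all 32851 promoter windows of the table, so a match is common. The Egr motif GCGNGGGCG, found in 5.55% of all windows, occurs 0 times in these 3 on either strand. The arrays do not show which start is used.

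Themis was the 1 gene of the 37 that rose. It encodes a T-lineage protein that binds the adaptor Grb2 and the phosphatase SHP-1 and sustains TCR signals during thymocyte selection in mice. Its values were 8.31, 8.44 and 8.35 in the competent and 8.70, 8.88 and 8.94 in the deficient arrays. All deficient arrays lay above all competent arrays. The means of 8.37 ± 0.07 and 8.84 ± 0.12 (SD, n = 3) differ 1.39-fold (log2 difference 0.47, SE 0.10, adjusted p = 0.040). The call ended without any 1 of the 6 arrays (adjusted p from 0.054 without competent 3 to 0.14 without deficient 2), with differences from 0.42 to 0.54, and also under median centring (0.42, adjusted p = 0.077).

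The Themis promoter is shown as the counterpart of the Ubash3b windows. RefSeq gives 2 overlapping windows that share 265 bases, and the first is chr10:28668110-28668409 on the plus strand (GRCm38.p6).
Themis: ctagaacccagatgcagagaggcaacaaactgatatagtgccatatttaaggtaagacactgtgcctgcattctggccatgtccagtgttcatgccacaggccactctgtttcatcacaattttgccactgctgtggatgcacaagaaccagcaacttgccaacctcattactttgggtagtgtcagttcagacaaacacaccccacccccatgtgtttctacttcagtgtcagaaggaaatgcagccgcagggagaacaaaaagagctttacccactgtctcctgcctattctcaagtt
The letters TGGAAA and the Egr motif each occur 0 times in both Themis windows. Over the 47 windows listed for the genes described here, which cover some genes more than once and leave out others, TGGAAA occurs in 27.7% and the Egr motif in 2.13%, beside 21.4% and 5.55% of all windows.

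**Figure D2:**
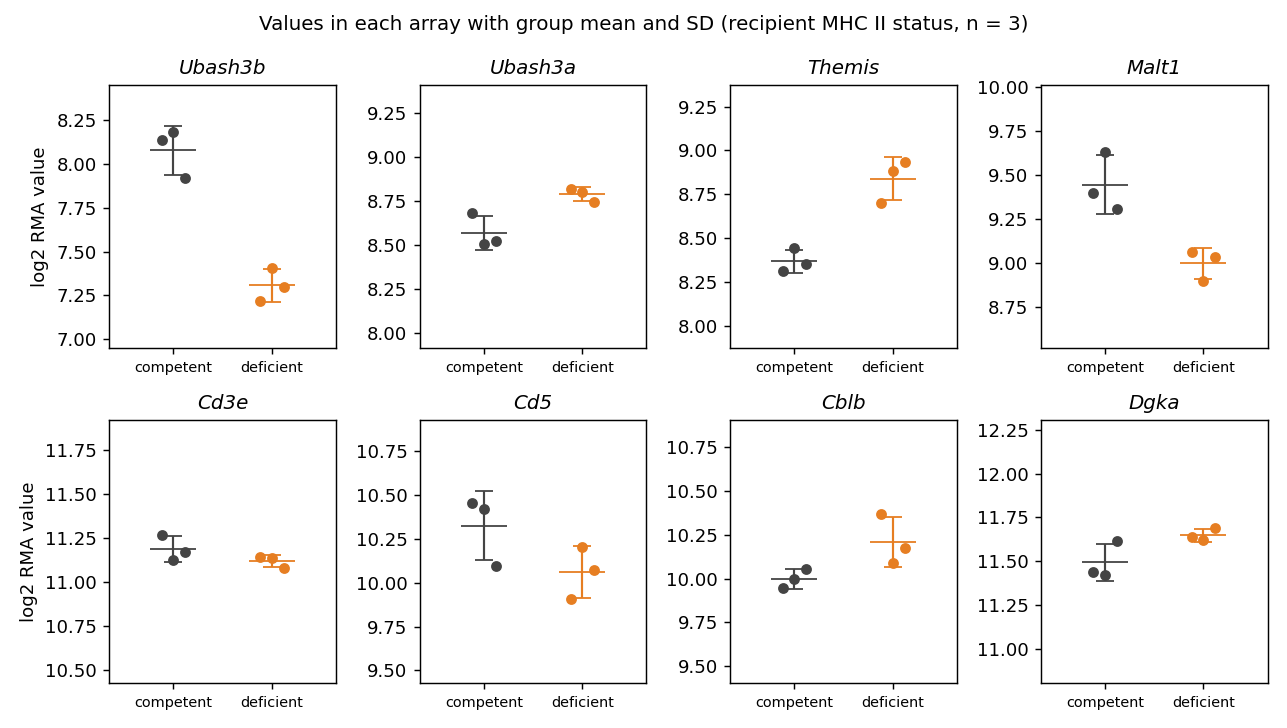
Log2 values of 8 genes in each array (points) with group mean and SD (bars, n = 3), grey for MHC II-competent and orange for MHC II-deficient recipients, on axes of equal span. The groups stand clear of each other for Ubash3b, Themis and Malt1, stand closer but do not overlap for Ubash3a, Cblb and Dgka, and overlap for Cd3e and Cd5.

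The genes of the receptor complex and its coreceptor differed little. Of the 5, 0 were called by limma, 0 had an unadjusted p under 0.05, and all 5 intervals lay between -0.41 and 0.32. Cd3e, which encodes the CD3ε chain that the recipients lack, read 11.27, 11.13 and 11.17 in the competent and 11.14, 11.14 and 11.08 in the deficient arrays. These values overlap, and the difference was -0.07 (SE 0.09, 95% interval -0.27 to 0.14). Cd247, which encodes the ζ chain, read 9.01, 9.05 and 8.79 against 9.05, 9.07 and 8.99, a difference of 0.09 (SE 0.10, 95% interval -0.14 to 0.32). Cd3d and Cd3g, the genes of the CD3δ and CD3γ chains, had non-overlapping groups with the deficient arrays lower, but their differences of -0.20 (SE 0.10) and -0.14 (SE 0.09) did not pass (adjusted p = 0.31 and 0.45). Cd4, the coreceptor gene that binds MHC class II, read 10.67, 10.51 and 10.22 in the competent and 10.37, 10.38 and 10.42 in the deficient arrays. The deficient values of Cd4 lie inside the competent range, and the difference of -0.08 (SE 0.12) turned to 0.0020 under quantile normalization and 0.023 without competent 1.

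Both proximal kinase genes analysed lay lower in the deficient arrays without passing the test. Fyn, a Src-family kinase, read 10.72, 10.58 and 10.44 in the competent and 10.21, 10.41 and 10.41 in the deficient arrays. Its groups lie close without overlapping, and the difference was -0.24 (SE 0.11, adjusted p = 0.28). Zap70, the kinase recruited to the phosphorylated receptor, read 9.18, 8.91 and 8.78 against 8.76, 8.70 and 8.87. The difference of -0.18 (SE 0.12, adjusted p = 0.47) is smaller than the spread of 0.20 (SD) among the competent arrays.

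Among 10 adaptor and effector genes, Themis rose and 0 fell by limma, and Themis was also the 1 with an unadjusted p under 0.05. Grap2, which encodes Gads, the bridge between LAT and SLP-76, came next with 9.85, 9.73 and 10.08 in the competent and 10.09, 10.10 and 10.19 in the deficient arrays. Its lowest deficient value barely exceeds competent 3, and the difference of 0.24 (SE 0.11, adjusted p = 0.29) did not pass. Lat, the membrane scaffold, read 11.58, 11.62 and 11.60 against 11.49, 11.49 and 11.66, a difference of -0.05 (SE 0.09) that was 0.014 under quantile normalization. Plcg1, the phospholipase that makes the calcium and diacylglycerol signals, read 8.77, 8.95 and 8.89 against 8.98, 8.97 and 8.81, a difference of 0.05 (SE 0.10) that was -0.00083 under median centring. Neither gene separated the groups. Nck1, an adaptor to the actin machinery, read 8.48, 8.80 and 8.79 in the competent and 8.36, 8.34 and 8.67 in the deficient arrays, with overlapping groups (-0.23, SE 0.13, adjusted p = 0.38). Lcp2, which encodes SLP-76, had a difference of -0.16 (SE 0.09, adjusted p = 0.41) with every deficient array lower. The remaining differences were those of the exchange factor genes Vav1 (0.08) and Rasgrp1 (-0.07), the actin regulator Was (-0.04) and the adaptor Sh2d2a (0.03). Their adjusted p ran from 0.73 for Rasgrp1 to 0.92 for Sh2d2a.

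The branch to NF-κB runs from PKC-θ (Prkcq) to the complex that holds Bcl10 and the paracaspase Malt1, and 0 of these 3 genes were called, with 1 unadjusted p under 0.05. Malt1 came closest. It read 9.40, 9.63 and 9.31 in the competent and 9.06, 8.89 and 9.03 in the deficient arrays. The groups did not overlap, and the difference of -0.45 (SE 0.11, 1.36-fold) had an adjusted p of 0.066. It passed without competent 3 (-0.52, adjusted p = 0.043) and with array weights (-0.44, adjusted p = 0.043), and the highest adjusted p was 0.22, without deficient 2. Prkcq read 10.79, 10.72 and 10.76 against 10.69, 10.78 and 10.79, a difference of 0.00 (SE 0.09, 95% interval -0.20 to 0.20). Bcl10 lay at -0.15 (SE 0.10, adjusted p = 0.47).

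Of the 4 NFAT and calcineurin genes 0 were called by limma, with 0 unadjusted p under 0.05. Nfatc1, the NFAT gene that is itself induced by TCR signals, read 8.78, 8.57 and 8.27 in the competent and 8.42, 8.33 and 8.37 in the deficient arrays. The competent arrays span 0.25 (SD) and enclose the deficient values, and the difference was -0.17 (SE 0.13, adjusted p = 0.54). The groups overlapped for Nfatc2 (-0.13, SE 0.12) and Nfatc3 (-0.02, SE 0.10). Rcan1, an NFAT target that inhibits calcineurin, stood at 0.07 (SE 0.13), and at -0.028 without competent 2 and -0.046 without deficient 2. For comparison, 2 transcription factor genes that TCR signals induce fell in the same arrays. They were picked by name with earlier results known, and other genes of their families were not followed here. Of all genes tested, 2.03% were called lower by limma. Egr2 fell by 1.41 (SE 0.15, adjusted p = 0.0027), and Nr4a1, which encodes Nur77, fell by 0.51 (SE 0.11, adjusted p = 0.042), a call that held without competent 3 but ended without any other single array (highest adjusted p 0.15).

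Besides the paralogues Ubash3a and Ubash3b, 5 genes have roles in the control of the kinases, and 0 of these 5 were called by limma. Ptpn6, which encodes SHP-1, had a difference of -0.23 (SE 0.10) with every deficient array lower, an unadjusted p of 0.044 and an adjusted p of 0.25. Ptpn22, the gene of a phosphatase that acts on Lck and ZAP-70, read 9.96, 10.04 and 10.03 in the competent and 10.29, 9.99 and 10.09 in the deficient arrays, an overlap with a difference of 0.12 (SE 0.10). Csk, the kinase that inhibits Src-family kinases, stood at -0.04 (SE 0.13), and at 0.029 under quantile normalization. Pag1, the adaptor that holds Csk at the membrane, stood at 0.19 (SE 0.11, adjusted p = 0.39). Ptprc, which encodes CD45 and both activates and inhibits Src-family kinases, stood at -0.04 (SE 0.10), and at 0.0056 under quantile normalization.

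The inhibitory receptors CD5 and CD6, whose genes are adjacent relatives, lay lower without passing the test (0 of 2 called, 0 unadjusted p under 0.05). Cd5, whose level tracks TCR signal strength in thymocytes and T cells, read 10.45, 10.42 and 10.10 in the competent and 9.91, 10.20 and 10.07 in the deficient arrays. Competent 3 lay among the deficient values, and the difference of -0.26 (SE 0.13, 95% interval -0.55 to 0.02) had an adjusted p of 0.30. Cd6 stood at -0.18 (SE 0.12, adjusted p = 0.48).

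The ubiquitin ligase and diacylglycerol kinase genes were likewise not called (0 of 4, with 0 unadjusted p under 0.05). Cblb, a ligase that limits T cell activation in the absence of costimulation, read 9.94, 10.00 and 10.06 in the competent and 10.37, 10.09 and 10.18 in the deficient arrays. All deficient values are higher, by a difference of 0.21 (SE 0.10, adjusted p = 0.32). Itch, a ligase whose loss in mice leads to T cell activation, read 9.53, 9.89 and 9.56 against 10.05, 9.83 and 9.76. Its groups overlap, with a difference of 0.22 (SE 0.13, adjusted p = 0.39). Dgka, which encodes a kinase that removes diacylglycerol and is high in quiescent T cells, read 11.44, 11.42 and 11.62 against 11.64, 11.62 and 11.69. Its lowest deficient value barely exceeds competent 3, and the difference was 0.16 (SE 0.10, adjusted p = 0.43). Dgkz, of the other main isoform in T cells, read 8.24, 8.18 and 8.01 against 8.03, 8.18 and 8.02, a difference of -0.07 (SE 0.10). It was the 1 gene of the 37 with 2 rows, and the row with the lower mean gave -0.0082.

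**Figure D3:**
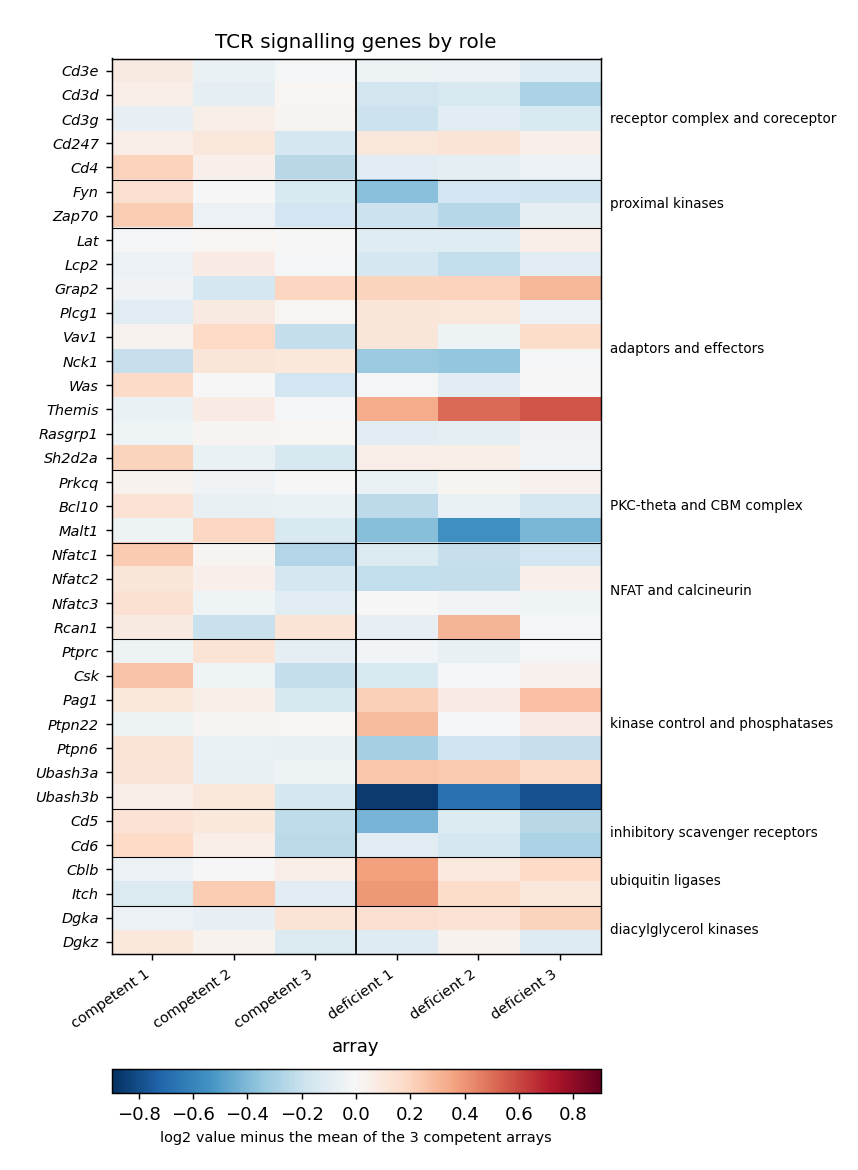
Log2 value of each of the 37 genes in each array minus the mean of the 3 competent arrays, with genes grouped by role (rows) and arrays in columns. Ubash3b is the darkest blue in the deficient arrays. Themis is the darkest red in deficient 2 and deficient 3, while Itch and Cblb are redder in deficient 1. Most genes stay pale, and competent 1 and competent 3 differ in many rows.

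Positive and negative regulators were then set side by side, with no test because the genes were chosen by name with earlier results known. The median difference was -0.08 over the 22 genes that promote signalling, 16 of them below 0 and 6 above. It was 0.07 over the 13 genes that restrain signalling, 7 of them above 0 and 6 below. The median over all genes tested was 0.02. Each group of regulators had 1 called gene, as Ubash3b, counted here as negative, fell and Themis, counted here as positive, rose. These medians depended on the arrays and the scaling. Without competent 2 or deficient 2 the median of the negative regulators was -0.028 or -0.046, and under quantile normalization that of the positive regulators was -0.0062.

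Averaged within an array as deviations from each gene's mean over 6 arrays, the positive regulators stood at 0.08, 0.06 and -0.04 in competent 1 to 3 and at -0.06, -0.05 and 0.01 in deficient 1 to 3. The negative regulators stood at 0.08, 0.03 and -0.06 and at -0.01, 0.00 and -0.03. Both groups were highest in competent 1, the positive regulators were lowest in deficient 1 and the negative ones in competent 3. The competent arrays differed among themselves by at least as much as the group means did. Competent 1 held the highest of the 6 values for 16 of the 37 genes and competent 3 for 0, where the shares over all genes were 19.1% and 17.2%. Competent 3 held the lowest value for 11 genes and deficient 1 for 10, where the shares over all genes were 16.5% and 16.3%. The SD over 3 arrays was larger in the competent group for 26 of the 37 genes (70.3%, against 63.2% of all genes), with a median of 0.13 against 0.09. Myeloid markers deviated by -0.31, 0.02 and -0.74 in competent 1 to 3 and by 0.62, 0.44 and -0.03 in deficient 1 to 3, with the lowest value in competent 3.

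**Figure D4:**
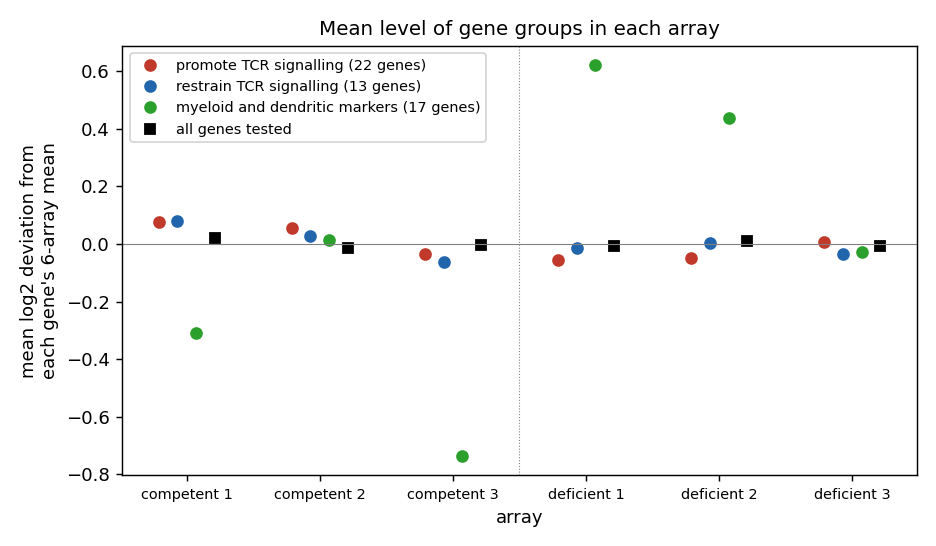
Mean deviation of each array from every gene's 6-array mean, in log2 units, for 22 positive regulators, 13 negative regulators, 17 myeloid and dendritic markers and all genes tested. The regulators stay between -0.06 and 0.08, while the myeloid markers run from -0.74 in competent 3 to 0.62 in deficient 1.

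Other genes of the pathway, from 4 lists, gave a similar count. Of 74 genes 64 were tested and the other 10 were not analysed here. By limma 2 rose and 0 fell (3.12%, against 3.37% of all genes), with an unadjusted p under 0.05 for 8 higher and 6 lower genes, and the median difference was 0.00. Nedd4, listed among the negative regulators but known in mouse T cells as a ligase that promotes activation by acting on Cbl-b, rose from 5.960, 6.102 and 6.049 to 6.830, 7.182 and 6.999. The groups stand well apart, a 1.95-fold difference (log2 0.97, SE 0.11, adjusted p = 0.0032). Evl, which encodes an actin regulator of the Ena/VASP family that acts at the T cell contact, rose from 9.47, 9.40 and 9.64 to 10.11, 10.33 and 10.11. This is a 1.60-fold difference (log2 0.68, SE 0.11, adjusted p = 0.013), and the call ended without competent 2 (0.63, adjusted p = 0.061) or deficient 2 (0.61, adjusted p = 0.055). By list, 1 of 22 kinase and adaptor genes was called by limma (4 with an unadjusted p under 0.05), 0 of 14 calcium and calcineurin genes (3), 0 of 9 Ras, MAPK and PI3K genes (1) and 1 of 19 negative regulators (6), where an unadjusted p under 0.05 was found for 18.9% of all genes.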

How the data were processed

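Transcripts were measured on 6 Affymetrix arrays of the whole-transcript type, 3 per group, from 100 ng of total RNA each, per the labels' protocols. The deposited log2 values were made by the authors with the R package affy and RMA (background correction, normalization across arrays, probe summary), per the submitters' processing notes. Versions, annotation and build are not given in the sources used here. The log base is not stated and was taken as 2, which fits a range of 2.40 to 13.3. Detection calls were not used, and the number of arrays limits the precision.

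Of 28101 rows, 21640 had 1 gene symbol in the platform annotation, 1321 several and 5140 none. Symbols were updated by Entrez identifier (21553 found, GRCm38.p6 table). Each of 19937 genes took its row with the highest mean, and genes with a mean under 5.205, the 25th percentile of these rows, were left out (4900 genes), which left 15037. limma 3.58.1 in R 4.3.3 (lmFit, eBayes, two-sided, no covariate, 4 residual degrees of freedom, 9.40 with the prior) was tested on simulated data and fitted to all genes, with Benjamini-Hochberg adjustment. Rows can bind near-identical transcripts.

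The genes and lists were chosen with earlier results of these data known. Values by array are given for called genes, the 5 largest differences each way and a fixed set of 15 genes that included Lck. The 14 alternatives were quantile normalization, median centring, no filter, a filter at the median, the mean of a gene's rows, a trended robust prior, array weights, the replicate number as a block, and each array left out. Marker lists for erythroid cells and platelets (3 genes tested, median difference 0.12, 0 called by limma, 1 with an unadjusted p under 0.05) and for Tregs (5 genes, median -0.27, 0 called, 3 with an unadjusted p under 0.05) were also followed.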

Additional observations from a re-analysis of the deposited data

How the results depend on the processing

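Over all genes 507 were called, and leaving out 1 array gave from 159 (without deficient 1) to 708 (without competent 3). Ubash3b stayed called under all 14 alternatives. The count of higher genes among the 37, which was 1 (Themis), was 0 under median centring, with the replicate number as a block (adjusted p = 0.052) and without each array (range 0 to 0). The count of lower genes was 2 with array weights, as Malt1 joined Ubash3b, and 1 to 2 with 1 array left out. For other pathway genes, the count of higher ones ran from 1 to 2 and of lower ones from 0 to 1 with 1 array left out; the lower one was Ptpn7, without competent 3 (-0.52, adjusted p = 0.047). The count of higher ones was 3 with the replicate block, which added Orai2 (0.82, adjusted p = 0.017). The median of the positive regulators was -0.0062 under quantile normalization, -0.13 under median centring and from -0.13 to -0.055 with 1 array left out. That of the negative regulators was 0.018 under median centring and from -0.046 to 0.12 with 1 array left out.

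Of 518 comparisons of the 37 genes with their alternatives, 483 kept direction and call, 8 lost the call (all Themis), 2 gained it (Malt1), and 25 over 11 genes changed sign, none of them called. Under quantile normalization the sign turned for Cd4 (0.0020), Csk (0.029), Lat (0.014), Nfatc3 (0.058), Ptprc (0.0056), Was (0.025) and, outside the 37, Foxp3 (0.017). Under median centring it turned for Plcg1 (-0.00083), Prkcq (-0.054) and Sh2d2a (-0.026), and with array weights for Prkcq (-0.0096) and Sh2d2a (-0.035). With 1 array left out it turned for Cd4 (-0.21 to 0.023), Csk (-0.15 to 0.091), Nfatc3 (-0.070 to 0.047) and Was (-0.12 to 0.050), each without competent 1 and Csk also without deficient 1, for Ptprc (-0.076 to 0.026, without competent 2), for Prkcq (-0.018 to 0.031, without competent 2, deficient 2 or deficient 3), for Rcan1 (-0.046 to 0.14, without competent 2 or deficient 2), for Sh2d2a (-0.044 to 0.13, without competent 2 or 3) and for Vav1 (-0.029 to 0.17, without competent 3). The cause was not tested. The replicate numbers did not pair the arrays: deviations of same-numbered arrays correlated at -0.02, -0.14 and 0.07. The block gave 564 called genes. It ended the calls of Themis and Nr4a1 (adjusted p = 0.053) and left those of Ubash3b, Evl, Nedd4 and Egr2. A gene at the threshold of this design can be lost with 1 array, so calls near it are the least sure.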
